A study of Mus musculus with 9 samples.

Results

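The CCAAT/enhancer-binding proteins (C/EBPs) are a family of basic leucine zipper transcription factors, and 5 of their genes, Cebpa, Cebpb, Cebpd, Cebpe and Cebpg, were followed here in mouse bone marrow (BM)-derived macrophages (Mϕs). They were taken by name, as the entries of the deposited table whose Ensembl identifiers carry these symbols, with earlier results of these data known. They are 5 of 53379 genes, and all 5 were among the 12824 genes with a mean of at least 0.5 FPKM (fragments per kilobase of exon, scaled to library size), which were tested. The study asked what IL-6 does to the transcriptome of Mϕs, and IL-4 served for comparison. BM cells of wild-type C57BL/6 mice, 3 in number, were grown for 3 days with 10 ng/ml MCSF (CSF-1), the growth factor that turns BM progenitors into Mϕs. For 4 more days the control cells received 10 ng/ml MCSF alone, the IL-4 cells MCSF plus 10 ng/ml IL-4, and the IL-6 cells MCSF plus 100 ng/ml IL-6. Doses and times are those of the labels. The study's methods give 100 ng/ml for IL-4, and the same times and doses as the labels for the rest. Its figure legends give another dose of both cytokines and a shorter treatment, so cytokine dose and time are uncertain. No age or sex of the mice is given in the sources used here, no gene was altered, and every library, controls included, comes from cells kept in MCSF. Each condition has 3 libraries, named Control, IL-4 and IL-6 #1 to #3. The cells were not sorted, so each library holds whatever grew in the dish.

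C/EBPs bind DNA as dimers through a basic region and a leucine zipper, and most can pair with one another and with other factors of the zipper class. C/EBPα, the product of Cebpa, drives progenitors into the myeloid lineage and restrains division. C/EBPβ and C/EBPδ, from Cebpb and Cebpd, are inducible by cytokines, and C/EBPβ takes its older name, NF-IL6, from IL-6, whose acute-phase program it serves in liver. C/EBPε, from Cebpe, switches on the granule proteins of maturing granulocytes, and C/EBPγ, from Cebpg, is a short family member without a strong activating domain that dimerizes with the others and with ATF4.

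The basic region, which touches DNA, is the most shared stretch of the family, and its coding sequence is printed for all 5 members to show how close they are. Coordinates are those of GENCODE M21 on GRCm38, and capitals mark the 31 of 60 bases that are the same in all 5. Cebpa lies at chr7:35120277-35120336 on the plus strand, Cebpb at chr2:167689697-167689756 on the plus strand, and Cebpd at chr16:15887907-15887966 on the plus strand. Cebpe lies at chr14:54710704-54710763 and Cebpg at chr7:35050582-35050641, both on the minus strand. All 5 stretches are coding exon.
Cebpa: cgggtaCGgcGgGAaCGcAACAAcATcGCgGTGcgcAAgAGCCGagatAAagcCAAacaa
Cebpb: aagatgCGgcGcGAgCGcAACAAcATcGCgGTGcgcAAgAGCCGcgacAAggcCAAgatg
Cebpd: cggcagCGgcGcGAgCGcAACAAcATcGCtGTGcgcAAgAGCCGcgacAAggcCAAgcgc
Cebpe: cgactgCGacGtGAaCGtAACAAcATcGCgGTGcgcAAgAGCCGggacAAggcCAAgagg
Cebpg: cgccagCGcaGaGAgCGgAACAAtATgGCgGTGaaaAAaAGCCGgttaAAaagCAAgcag
Cebpb and Cebpd were the closest, with 86.7% of the 60 bases identical. Cebpg stood apart from the other members, at 60% to Cebpb and 65% to Cebpd and Cebpe. In spite of this likeness no 50-base word occurred in the exons of any 2 members, so reads of that length or longer differ between members.

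The whole genes differ more. Cebpa (ENSMUSG00000034957.10, chr7:35119293-35121928, plus strand) is a single exon of 2636 bases. Cebpb (ENSMUSG00000056501.3, chr2:167688915-167690418, plus strand) is also a single exon, of 1504 bases. Cebpd (ENSMUSG00000071637.5, chr16:15887286-15891031, plus strand) has 3746 exon bases. Cebpe (ENSMUSG00000052435.7, chr14:54710360-54712174, minus strand) has 1241 bases in 2 exon blocks, and Cebpg (ENSMUSG00000056216.9, chr7:35046422-35056573, minus strand) has 5621 bases in 3. Cebpg and Cebpa are neighbours on chromosome 7, with 62719 bases between them. Cebpb shares 312 exon bases with Tmem189 on the opposite strand (42.0 to 71.8 FPKM), and Cebpd shares 562 with Spidr (2.22 to 7.18 FPKM). The library kit marks strand, but whether strand was used in counting is not stated in the sources used here, so reads of the shared bases cannot be assigned.

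The 250 bases before the annotated start of Cebpa and Cebpb are printed because these genes were the members with the highest levels and went opposite ways with IL-6. They are RefSeq sequence of GRCm38.p6, chr7:35119043-35119292 and chr2:167688665-167688914, both plus strand. Capitals mark the motifs found among those searched: TATAAA in Cebpa, and TGACG, the core of the cAMP response element, on either strand in Cebpb.
Cebpa: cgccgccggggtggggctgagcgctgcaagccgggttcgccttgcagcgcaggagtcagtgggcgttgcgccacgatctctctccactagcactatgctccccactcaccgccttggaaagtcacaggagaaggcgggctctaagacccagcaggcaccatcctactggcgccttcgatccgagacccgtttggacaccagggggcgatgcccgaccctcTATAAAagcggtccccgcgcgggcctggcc
Cebpb: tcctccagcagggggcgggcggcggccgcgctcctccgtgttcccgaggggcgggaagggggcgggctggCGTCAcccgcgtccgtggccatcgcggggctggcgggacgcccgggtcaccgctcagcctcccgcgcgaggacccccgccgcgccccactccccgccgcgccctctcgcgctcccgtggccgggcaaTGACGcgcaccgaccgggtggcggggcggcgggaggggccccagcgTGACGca
In a window that also takes the first 50 bases of the gene, Cebpb held TGACG at −180, −53 and −7 from the start and TATAAA at 21, and Cebpa held TATAAA at −30. Of 32544 promoters of the same length, 20.9% hold a TGACG and 13.6% a TATAAA, both strands searched. The STAT motif TTCNNNGAA and the same with 1 more N in its middle (8.33% and 6.98% of promoters), the C/EBP motif TTGCNNAA (10.8%) and the C/EBP-ATF motif TGATGNAA (3.91%) did not occur in the windows of Cebpa, Cebpb or Cebpg. The Cebpg window held none of the motifs, and those of Cebpd and Cebpe were not used here. A match, or none, in these letters says nothing of whether a factor was bound.

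The libraries held 29988160 to 39909571 fragments, and every member was well counted, from 204 fragments (the lowest library of Cebpe) to 12958 (the highest of Cebpa). All 10 Mϕ markers were expressed, among them Csf1r and Adgre1 (168 to 751 and 105.5 to 523 FPKM). With IL-4, 4 of the 10 were called lower and 0 higher, beside 8.89% lower and 5.02% higher over all tested genes. Their summed level, most of it Lyz2, which granulocytes also express, was 19896 to 23509 FPKM in control, 8183 to 10102 with IL-4 and 24433 to 25055 with IL-6. Granulocyte transcripts were present in every library, with 12 of 12 markers over the filter, whereas 0 of 8 hepatocyte and 0 of 8 adipocyte and stromal markers passed it. B cell markers summed to 19.8 to 50.6 FPKM. Dendritic cell markers summed to 145 to 215 in control, 362 to 472 with IL-4 and 126 to 165 with IL-6. Of the 5 dendritic cell markers tested, 1 was called higher with IL-4 and 1 lower, at a median log2 fold change of −0.46. T and NK cell markers summed to 1.18 to 1.87 FPKM in control, 3.29 to 5.01 with IL-4 and 1.26 to 2.04 with IL-6. Erythroid and megakaryocyte markers summed to 280.0 to 435 FPKM in control, 115 to 221 with IL-4 and 1035 to 2106 with IL-6. The libraries also fall into 2 sets, which divide the IL-4 group. Intestinal Paneth and goblet cell genes, without Lyz1, made up 108.5 to 150.4 per 1000000 of summed FPKM in the first set (all controls and IL-4 #1) and 0.0403 to 0.506 in the second (IL-4 #2 and #3 and IL-6 #1 to #3). Control and IL-6 libraries lie wholly in different sets, so for this comparison cytokine and set cannot be told apart. Where a term for the set is used below, it is estimated from IL-4 #1 against IL-4 #2 and #3 alone, and so rests on 1 library. IL-4 #3 stood farthest from its group (root mean square log2 difference 1.14, against 0.354 to 0.788 in the others), with short genes high (median 0.35) and long genes low (median −0.95). Its summed FPKM over all genes was also the highest, 441581 against 322853 to 371690 in the other libraries. FPKM levels below are not rescaled for this unless stated.

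The test was limma on log2(FPKM + 0.1), fitted over the 9 libraries, and p-values were adjusted over all 12824 genes. Called genes had an adjusted p under 0.05 and differed at least 2-fold. Members that passed the adjusted p but changed less than 2-fold are given as such. Tests were two-sided. With 3 libraries a group, the smallest p that exact permutation can give is 0.1. The design names 3 mice, but no label ties a library to a mouse, and p-values measure the spread between these cultures.

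In control Mϕs Cebpa had the highest level of the family, followed by Cebpb, Cebpg, Cebpe and Cebpd. Their means in FPKM were 119.8 ± 9.24, 38.7 ± 7.46, 17.0 ± 0.605, 12.3 ± 3.87 and 7.0 ± 0.994 (SD, n = 3). Every neighbour in this order was separate in all 3 libraries except Cebpe and Cebpd, whose ranges overlapped. With IL-4 the means ran in the order Cebpa, Cebpb, Cebpg, Cebpe and Cebpd again, but the ranges of Cebpa and Cebpb overlapped, as did those of Cebpe and Cebpd. With IL-6 the order at the top was reversed: Cebpb lay above Cebpa in all 3 libraries and Cebpe followed, with the ranges of Cebpe, Cebpg and Cebpd overlapping from one to the next. In bulk RNA fewer cells of a type and less RNA per cell cannot be told apart, and this holds for all levels given here.

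**Figure D1:**
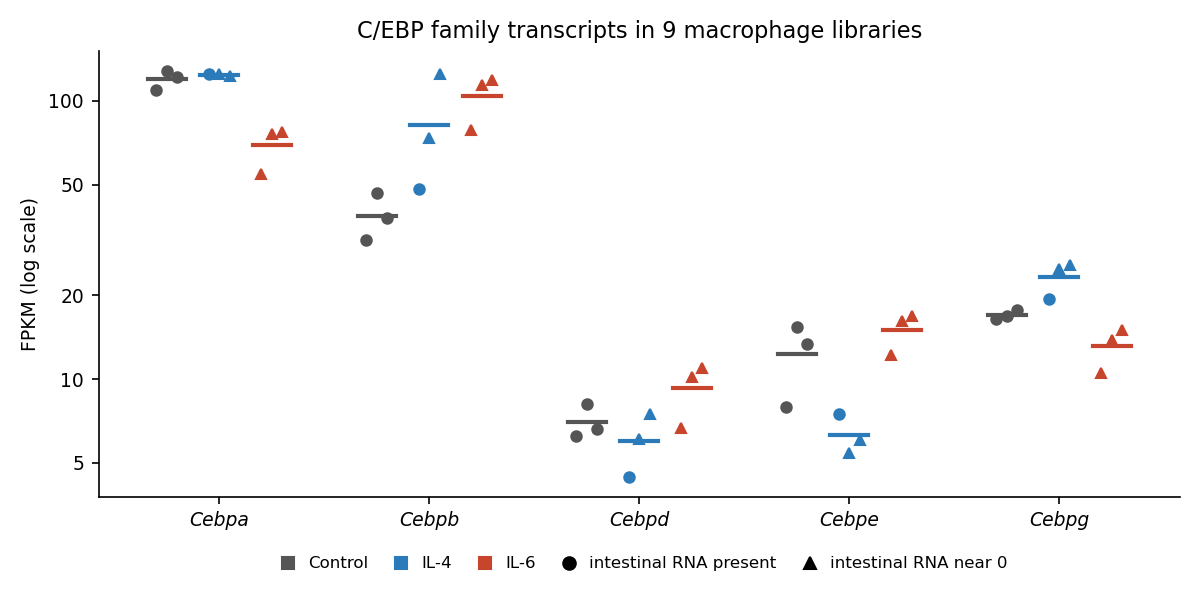
FPKM of the 5 C/EBP genes (log axis) in each library, grouped by condition, with the mean as a bar; circles are libraries with intestinal RNA and triangles those with it near 0. Cebpa sits between 54.5 and 77.4 FPKM with IL-6, under every control and IL-4 library, and Cebpb between 78.7 and 119, above every control library.

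Cebpa, the lineage factor, was lower with IL-6 and at the control level with IL-4. The control libraries had 109.8, 128 and 122 FPKM, in the order #1 to #3. The IL-4 libraries had 125, 125 and 123, tightly grouped on the FPKM scale (124 ± 0.924, SD). This grouping is not corrected for the trend of Cebpa on exon length and GC content. On the log2 scale that trend was −0.20, −0.0037 and 0.58 in IL-4 #1 to #3. The IL-6 libraries had 54.5, 75.8 and 77.4 (69.2 ± 12.8). All 3 IL-6 libraries lay under all 6 others, while IL-4 fell inside the control range in FPKM. The log2 fold change of IL-6 against control was −0.81 (SE 0.15, 95% interval −1.15 to −0.46, limma adjusted p = 0.0146), that is 0.578 of the control mean, and passed the adjusted p without reaching 2-fold. Against IL-4 it was −0.86 (SE 0.15, adjusted p = 0.00319), also under 2-fold. IL-4 against control gave 0.06 (interval −0.29 to 0.40, adjusted p = 0.814). It was 0.25 after median-ratio rescaling (adjusted p = 0.335) and −0.10 after quantile normalization (0.683). Without Control #2 or #3, IL-6 against control had an adjusted p of 0.0698 or 0.0715, with trends on exon length and GC content removed it was −0.64 (0.0851), and with a term for the set −0.80 (0.224). Inside the second set, where both cytokines have libraries, Cebpa with IL-6 was 0.558 of its level with IL-4. Its adjusted p against IL-4 was under 0.05 in 20 of 20 alternatives, which were fitted to libraries of both sets.

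Cebpb, the inducible factor named for IL-6, was the member called higher with IL-6. The control libraries had 31.6, 46.5 and 37.9 FPKM. The IL-4 libraries had 48.1, 73.6 and 125 (82.2 ± 39.0). The IL-6 libraries had 78.7, 114 and 119 (104 ± 21.8). Neither cytokine group overlapped with control, whereas IL-4 #3, the library that stands apart, was above all IL-6 libraries in FPKM. That rank is not corrected for its high summed FPKM (441581). Nor is it corrected for the trend of Cebpb on exon length and GC content, 0.97 on the log2 scale in IL-4 #3. IL-6 against control gave a log2 fold change of 1.42 (SE 0.34, 95% interval 0.64 to 2.19, limma adjusted p = 0.0394), a 2.68-fold higher mean. For IL-4 against control it was 0.99 (SE 0.34, adjusted p = 0.0662), which was not called. IL-6 against IL-4 gave 0.42 (interval −0.36 to 1.20, adjusted p = 0.34), so on this scale the libraries showed no difference between the cytokines beyond their spread.

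The Cebpb call had an adjusted p under 0.05 in 10 of 20 alternatives. It held with quantile normalization (1.52, adjusted p = 0.0091), with only the groups compared (0.00452), with the library number as a block (0.0191) and with trends on exon length and GC content removed (1.58, 0.000127). It was lost with no filter (adjusted p = 0.0718) and after median-ratio rescaling (0.0795). It was also lost without Control #1, #2 or #3, IL-4 #2, or IL-6 #1, #2 or #3 (adjusted p 0.0662 to 0.145), and held without IL-4 #1 (0.0169) or IL-4 #3 (0.00372). A term for the set, which rests on IL-4 #1, gave 0.42 at an adjusted p of 0.541. Inside the sets, IL-4 #1 had 1.24 times the control mean and the IL-6 mean was 1.05 times that of IL-4 #2 and #3, while IL-4 #2 and #3 together had 2.06 times the level of IL-4 #1. The trend of Cebpb on exon length and GC content was left in these ratios and in the fit with a set term. It was −0.35, −0.013 and 0.97 in IL-4 #1 to #3 (log2 scale), and its part in them was not tested. How much of the Cebpb difference belongs to the set and how much to IL-6 cannot be told apart. For IL-4, leaving out IL-4 #1 gave 1.33 (adjusted p = 0.0157), a call. The library number as a block gave 0.99 at an adjusted p of 0.0256, still under 2-fold. Quantile normalization gave 0.92 (0.038). Leaving out IL-4 #3 gave 0.78 for IL-6 against IL-4 (adjusted p = 0.0391). With each library's trend on exon length and GC content removed, IL-4 against control was 0.77 (adjusted p = 0.00132) and IL-6 against IL-4 was 0.81 (adjusted p = 0.00074), both passing the adjusted p without reaching 2-fold.

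**Figure D2:**
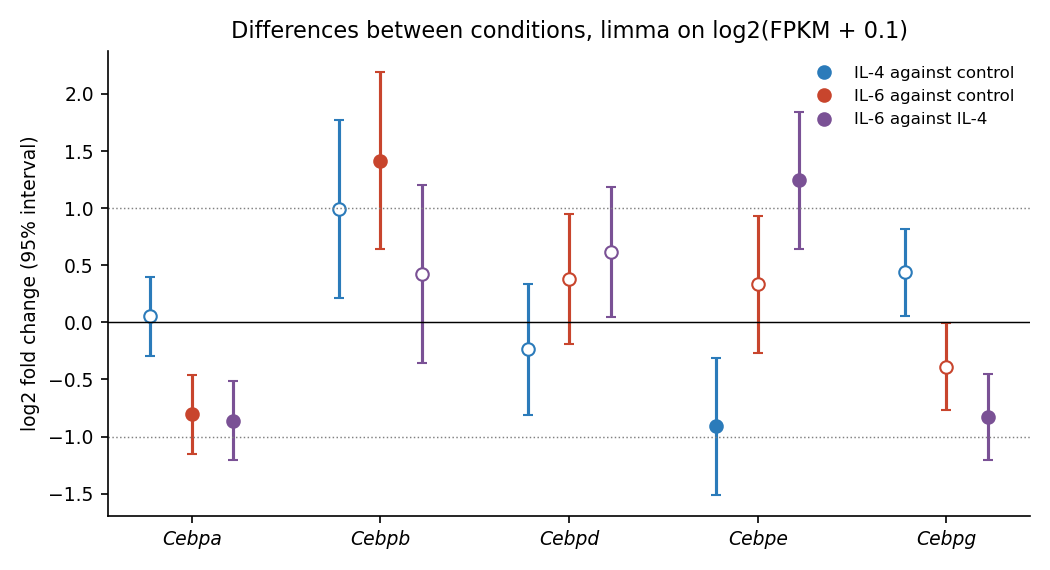
Log2 fold change of each C/EBP gene in the 3 comparisons (limma), with 95% intervals; filled points have an adjusted p under 0.05 and dotted lines mark 2-fold. Cebpb against control with IL-6 (1.42) and Cebpe with IL-6 against IL-4 (1.24) are past both limits.

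Cebpd, the other member that acute-phase signals induce, stayed low and did not pass the test in any comparison. The control libraries had 6.24, 8.13 and 6.64 FPKM. The IL-4 libraries had 4.47, 6.10 and 7.5, and the IL-6 libraries 6.68, 10.2 and 11.0. The 3 groups overlapped, with the IL-6 group highest on average (9.28 ± 2.30). The log2 fold changes were −0.24 (IL-4 against control, adjusted p = 0.521), 0.38 (IL-6 against control, 95% interval −0.19 to 0.95, adjusted p = 0.457) and 0.62 (IL-6 against IL-4, 95% interval 0.04 to 1.19, adjusted p = 0.0876). A term for the set turned IL-6 against control to −0.21 (adjusted p = 0.722). IL-6 against IL-4 passed the adjusted p alone with the library number as a block (adjusted p = 0.0342), without IL-4 #3 or IL-6 #1 (0.0292 and 0.044), and with trends on exon length and GC content removed (0.0212).

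Cebpe, the granulocyte factor, was lower with IL-4 than with either control or IL-6. The control libraries had 7.96, 15.5 and 13.4 FPKM. The IL-4 libraries had 7.47, 5.42 and 6.04, all under every control library, though Control #1 lay close. The IL-6 libraries had 12.2, 16.1 and 16.9, inside or just above the control range. Between the cytokines, the log2 fold change of IL-6 against IL-4 was 1.24 (SE 0.26, 95% interval 0.64 to 1.84, limma adjusted p = 0.00773), a call and a 2.39-fold difference of means. Inside the second set of libraries IL-6 had 2.63 times the level of IL-4. In the alternatives, which were fitted to libraries of both sets, the adjusted p was under 0.05 in 20 of 20. IL-4 against control gave −0.91 (SE 0.26, interval −1.51 to −0.31, adjusted p = 0.0361), 0.514 of the control mean, and passed the adjusted p without reaching 2-fold.

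The difference between IL-4 and control had an adjusted p under 0.05 in 9 of 20 alternatives. It had an adjusted p of 0.0521 with the library number as a block, 0.0731 with no filter, 0.0964 after median-ratio rescaling (−0.71) and 0.346 with a term for the set (−0.66). Quantile normalization gave −0.75 (adjusted p = 0.0836), and only the groups compared gave −0.91 (0.0913). The adjusted p was over 0.05 without Control #2 or #3, IL-4 #2, or IL-6 #2 or #3 (0.058 to 0.123). The difference was past 2-fold without Control #1 (−1.19) or IL-4 #1 (−1.03). IL-6 against control gave 0.33 (interval −0.26 to 0.93, adjusted p = 0.541). Granulocyte markers moved with Cebpe: the 12 genes summed to 5116 to 8957 FPKM in control, 2259 to 4171 with IL-4 and 8286 to 11460 with IL-6, and 11 of the 12 were called lower with IL-4 than in control (7 after median-ratio rescaling, 5 with a term for the set, at medians of −1.55, −1.35 and −1.42). The 10 eosinophil, basophil and mast cell markers summed to 75.7 to 172 FPKM in control, 45.6 to 68.7 with IL-4 and 22.4 to 39.6 with IL-6. Most of the control sum was Prg2 (65.1, 154 and 140.7 FPKM). Of the 9 tested, 4 were called higher with IL-4 and 3 lower, at a median of 0.87. Over all tested genes 5.02% were called higher with IL-4 and 8.89% lower, at a median of −0.20. The part of either cell type in the Cebpe result was not tested.

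Cebpg, the short partner, was higher with IL-4 and lower with IL-6 when the cytokines were compared with each other. The control libraries had 16.5, 16.9 and 17.7 FPKM, the narrowest control spread of the family in absolute terms. The IL-4 libraries had 19.3, 24.9 and 25.7, and the IL-6 libraries 10.5, 13.8 and 15.0. The 3 groups did not overlap, with IL-4 on top, control between and IL-6 lowest. The log2 fold change of IL-6 against IL-4 was −0.83 (SE 0.17, 95% interval −1.21 to −0.45, limma adjusted p = 0.00608), 0.563 of the IL-4 mean, past the adjusted p but under 2-fold. Against control neither cytokine passed: IL-4 gave 0.44 (adjusted p = 0.0889) and IL-6 gave −0.39 (adjusted p = 0.227). The IL-4 value passed the adjusted p alone with the library number as a block (adjusted p = 0.049) and without IL-4 #1 (0.0394). In the second set IL-6 had 0.519 of the IL-4 level. Fitted to libraries of both sets, the difference between the cytokines had an adjusted p under 0.05 in 20 of 20 alternatives.

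Counted over the family, IL-4 against control called 0 of 5 members, where 5.02% of all tested genes were called higher and 8.89% lower. By adjusted p alone 1 was lower, Cebpe, against 8.55% of all genes higher and 16.3% lower. With IL-6 against control 1 of 5 was called higher, Cebpb, against 3.49% higher and 1.89% lower over all genes. By adjusted p alone 1 was higher and 1 lower, Cebpa, against 4.58% and 3.82%. For IL-6 against IL-4, 1 of 5 was called higher, Cebpe, against 13.6% higher and 6.82% lower, and by adjusted p alone 1 was higher and 2 lower, Cebpa and Cebpg, against 20.8% and 13.3%. The median log2 fold change of the 5 was 0.06, 0.33 and 0.42 in the 3 comparisons, beside −0.20, −0.0044 and 0.22 over all tested genes. Median-ratio rescaling of the libraries moved the −0.20 of IL-4 to −0.0080, and put Cebpe with IL-4 against control at −0.71. The rescaling also took Cebpa and Cebpg past 2-fold in IL-6 against IL-4 (−1.06 and −1.03).

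The make-up of the family differed more than its sum. Summed over the 5 members the level was 195 ± 21.6 FPKM in control, 242 ± 42.0 under IL-4 and 210.4 ± 41.7 under IL-6. The IL-4 libraries summed to 204, 235 and 287, the last in IL-4 #3, whose FPKM over all genes also summed highest. The sums are not rescaled for this. Cebpa made up 61.7% of it in control, 52.4% under IL-4 and 33.0% under IL-6. Cebpb made up 19.7%, 32.8% and 49.2%. The ratio of Cebpb to Cebpa, which was chosen after the values had been seen, was 0.288, 0.363 and 0.312 in the control libraries. It was 0.386, 0.590 and 1.01 under IL-4, and under IL-6 it was 1.45, 1.5 and 1.54. No group overlapped with another, and the IL-6 libraries were the tightest relative to their mean (1.49 ± 0.0460). On the log2 scale the ratio was 2.22 higher with IL-6 than in control (4.67-fold), 0.94 higher with IL-4 (1.92-fold) and 1.28 higher with IL-6 than with IL-4 (2.44-fold). Each of these 3 comparisons had an exact permutation p of 0.1, also after adjustment over the 3, which is the smallest that 3 libraries against 3 can give. Inside the sets the ratio was 1.20 times control in IL-4 #1, and with IL-6 it was 1.86 times that of IL-4 #2 and #3. A term for the set brought the log2 ratio of IL-6 against control to 1.22.

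**Figure D3:**
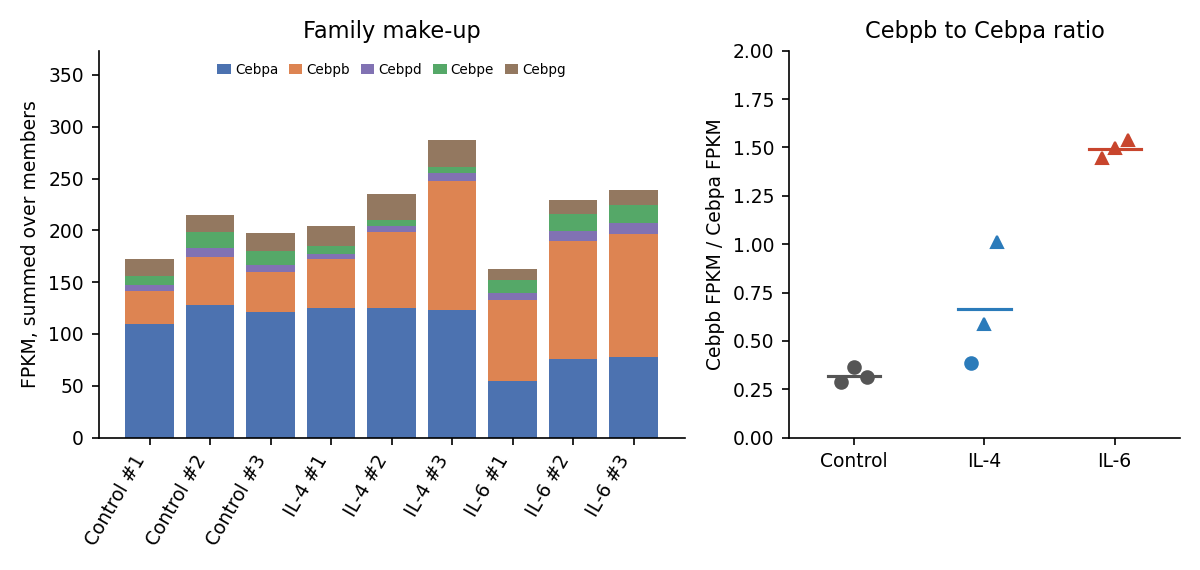
Left, FPKM of the 5 C/EBP genes stacked for each library; right, the ratio of Cebpb to Cebpa FPKM per library with the group mean as a bar (circles, libraries with intestinal RNA; triangles, near 0). The ratio runs from 0.288 to 0.363 in control, 0.386 to 1.01 with IL-4 and 1.45 to 1.54 with IL-6.

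The signals that reach the family were read from a list of 16 regulators, of which 15 were tested. This and the following lists were chosen with earlier results of these data known, so their counts are a description. Counts in this and the following lists stand beside the shares of all tested genes called, 5.02% higher and 8.89% lower with IL-4, 3.49% and 1.89% with IL-6, and 13.6% and 6.82% between the cytokines (IL-6 against IL-4). With IL-4, 2 regulators were called higher and 2 lower. With IL-6, 3 were called higher and 0 lower (2 and 1 with a term for the set). These counts are too few to read for the list as a whole, and the genes are given singly. IL-6 against IL-4 gave 6 higher and 2 lower (3 and 2 without IL-4 #3, 4 and 2 after median-ratio rescaling). Socs3, the feedback inhibitor that STAT3 induces, had 2.91, 2.28 and 1.61 FPKM in control, 2.68, 3.23 and 1.76 under IL-4, and 74.7, 80.9 and 85.5 under IL-6. It rose with IL-6 by 5.12 on the log2 scale (limma adjusted p = 3.02e-05) and serves as the check of the treatment. Stat3, the transcription factor downstream of the IL-6 receptor, rose from 13.3, 10.5 and 11.6 FPKM to 29.7, 27.6 and 29.0 (log2 fold change 1.29, adjusted p = 0.0274). Il4ra, the IL-4 receptor α chain, rose with IL-6 by 1.81.

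Il6ra, the ligand-binding IL-6 receptor chain, had 25.5, 16.8 and 18.4 FPKM in control, 11.7, 9.32 and 4.18 under IL-4, and 18.4, 17.1 and 16.5 under IL-6. It was called lower with IL-4 (−1.36, adjusted p = 0.0234), while Il6st, its signaling partner gp130, was called higher (1.63). Myb, a progenitor factor, was also called lower with IL-4 (−1.04). Without IL-4 #3 neither Il6ra nor Myb was among the calls, which were then 2 higher and 0 lower. Trib1, an adaptor that sends C/EBPα to the proteasome, had 4.49, 4.42 and 4.57 FPKM in control and 4.46, 4.26 and 2.79 with IL-4. With IL-6 it had 9.07, 8.19 and 9.55, above all other libraries. Its log2 fold change with IL-6 was 0.97 against control (adjusted p = 0.015, under 2-fold) and 1.22 against IL-4 (adjusted p = 0.00143, called). Trib3, a related adaptor that ATF4 induces, rose with IL-4 (4.27) and was lower with IL-6 than with IL-4 (−4.91). Spi1, which encodes PU.1, the Mϕ factor that binds beside C/EBPs, did not pass in any comparison: its means were 109 ± 8.67 FPKM in control, 122 ± 10.9 under IL-4 and 117 ± 6.26 under IL-6.

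Of 11 dimer partners and related zipper factors, 10 were tested. With IL-4, 4 were called higher and 1 lower. Batf3 (3.17), Nfil3 (2.00), Atf4 (1.29) and Atf3 were the higher ones, and Dbp, a clock-controlled factor, was lower (−2.58). Ddit3, which encodes CHOP, the stress-induced partner that blocks C/EBP binding, had 13.8, 23.2 and 19.5 FPKM in control and 8.97, 10.5 and 10.1 with IL-6. With IL-4 it had 24.3, 60.2 and 170, all above control but far apart, and it was not called (1.77, adjusted p = 0.0634). It was lower with IL-6 than with IL-4 (−2.66, adjusted p = 0.0101). Atf4, the integrated stress response factor that pairs with C/EBPs, had 74.9, 97.7 and 94.3 FPKM in control, 140, 233 and 308 under IL-4, and 70.5, 76.5 and 74.7 under IL-6. Its change with IL-4 passed (adjusted p = 0.00926). With IL-6, Nfil3 (1.82) and Batf (1.37) were called higher and Atf3 lower (−1.06), and against IL-4 Batf3 was lower (−3.94), Atf3 lower (−2.21) and Dbp higher (1.91). With a set term, 2 rather than 4 were called higher with IL-4 and 1 rather than 2 with IL-6.

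C/EBP targets were read in 3 lists. Of 23 genes widely described as bound by C/EBPs in Mϕs, 20 were tested. The list shares 3 genes with the Mϕ markers, 1 with the granulocyte markers and 1 with the regulators. With IL-4, 4 were called higher and 11 lower, at a median log2 fold change of −1.22. Arg1, which encodes arginase-1, rose by 10.58 and the chemokine gene Ccl2 by 3.00, while the scavenger receptor gene Marco fell by 6.40 and the endotoxin co-receptor gene Cd14 fell by 2.53. With IL-6, 8 were called higher and 1 lower, at a median of 0.70. Il1b, the cytokine gene, rose by 4.47, Ptgs2, which encodes cyclooxygenase-2, by 3.68, the neutrophil chemokine gene Cxcl2 by 3.57 and Arg1 by 2.39. IL-6 against IL-4 gave 14 higher and 3 lower, with Arg1 (−8.19), Marco (8.14), Il1b (6.01) and Cxcl2 (4.77) changed most. A term for the set left 3 rather than 8 called higher with IL-6, at a median of 1.26.

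Acute-phase genes, the classic targets of C/EBPβ and C/EBPδ in liver, were mostly silent: of 17, 5 were tested and 5 were at 0 in all 9 libraries. Of the 17, 1 is also in the list of granule genes that follows. The 8 hepatocyte markers summed to 0.171 to 2.51 FPKM. Saa3, the serum amyloid gene that Mϕs express, had 0.616, 0.960 and 0.766 FPKM in control, 0.168, 4.91 and 4.93 under IL-4, and 1946, 2057 and 2371 under IL-6. With IL-6, 3 of the 5 were called higher and 0 lower: Saa3 by 11.25 on the log2 scale (adjusted p = 0.000472), Hp, which encodes haptoglobin, by 2.72, and the complement gene C3 by 2.32. With IL-4, Hp (−2.05) and Lcn2 (−1.54), which encodes the iron-binding protein lipocalin-2, were called lower, 2 of the 5. IL-6 against IL-4 gave 4 higher and 0 lower, Saa3 by 10.13, Hp by 4.77, C3 by 2.88 and Lcn2 by 2.18. A term for the set left 2 rather than 3 called higher with IL-6, and gave 3 rather than 2 lower with IL-4.

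Granule genes that depend on C/EBPε were, like Cebpe, mostly lower with IL-4 than with IL-6. All 14 were tested, and with IL-4 11 were called lower and 1 higher, at a median of −1.44. The antimicrobial gene Camp fell by 2.61, Retnlg, a resistin-like gene, fell by 1.98 and the gelatinase gene Mmp9 fell by 1.80. The exception, Chil3, a chitinase-like gene and a hallmark of IL-4 in Mϕs, rose from 246, 395 and 363 FPKM to 13967, 15916 and 17926 (log2 fold change 5.59). With IL-6 against control 2 were called higher, the collagenase gene Mmp8 (1.38) and Chil3 (1.01), and IL-6 against IL-4 gave 12 higher and 1 lower, with Chil3 (−4.58), Mmp8 (2.81), Camp (2.71) and Ngp (2.18) changed most. With a term for the set, the calls with IL-4 were 6 lower and 1 higher, at a median of −1.27. After median-ratio rescaling they were 8 lower and 1 higher, at −1.25. For IL-6 against control the set term left 0 called, at a median of 0.33 against 0.56, and the rescaling left 1 higher. Of the 12 granulocyte markers, 8 are in this list and 2 in the next.

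Primary granule genes, made earlier in granulocyte development, had the same order. Of 7, 6 were tested. Prtn3, which encodes proteinase 3, had 11.6, 28.1 and 21.7 FPKM in control, 5.30, 2.88 and 3.07 under IL-4, and 29.7, 48.1 and 49.4 under IL-6. With IL-4, 3 were called lower and 0 higher, the elastase gene Elane (−2.69), Prtn3 (−2.38) and the myeloperoxidase gene Mpo (−1.62). IL-6 against control gave 0 calls among the 6, and IL-6 against IL-4 gave 5 higher and 0 lower, among them Prtn3 (3.48), Elane (2.51), Mpo (1.80) and the cathepsin G gene Ctsg (1.61). A term for the set left 1 rather than 3 called lower with IL-4, at a median of −0.69 against −1.26. These genes belong to granulocyte precursors, and how many such cells each culture held was not measured.

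**Figure D4:**
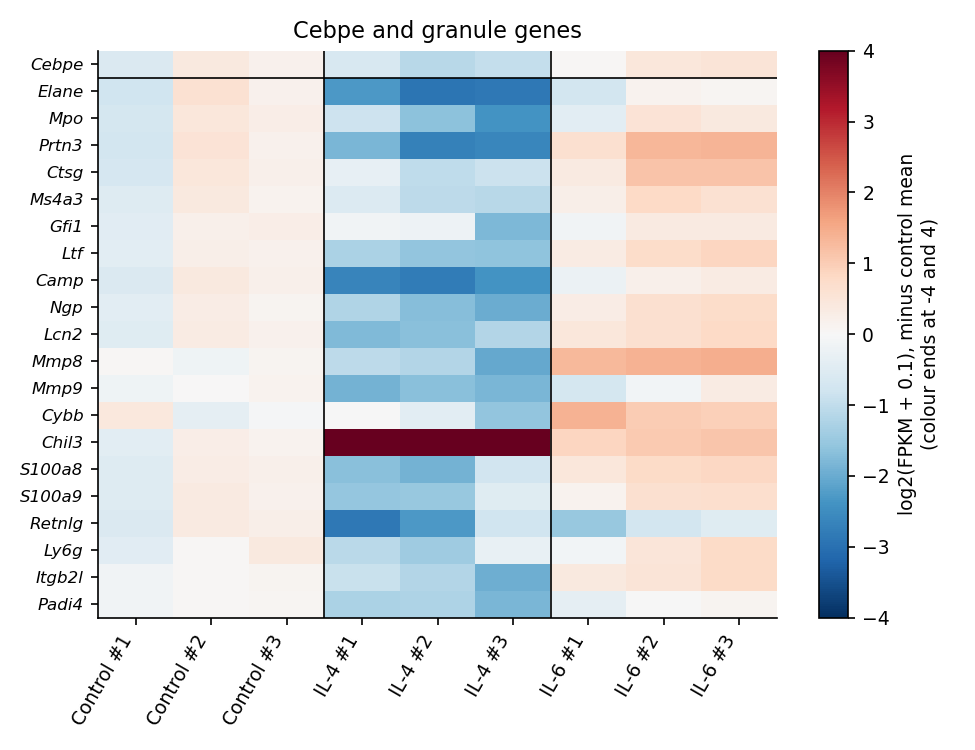
Log2(FPKM + 0.1) of Cebpe, 6 primary granule genes and 14 granule genes under C/EBPε in each library, minus the mean of the control libraries; colours end at −4 and 4. The IL-4 columns are low for Cebpe and most granule genes except Chil3 (log2 fold change 5.59, past the colour scale).

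Cebpg was set beside the integrated stress response, the ATF4 program in which C/EBPγ is a known partner. This list shares 3 genes with the dimer partners and 1 with the regulators, which are thus counted again. Of 14 genes, 12 were tested, and with IL-4 8 were called higher and 0 lower, at a median of 1.53. Trib3 rose by 4.27, and the amino acid synthesis genes Phgdh by 3.74, Psat1 by 3.37 and Asns by 3.17. With IL-6 against control 2 were called higher and 1 lower, namely Ddit4 (2.49), an inhibitor of mTORC1, Slc7a11 (2.31), the cystine transporter, and Atf3 (−1.06). IL-6 against IL-4 gave 2 higher and 8 lower, with Trib3 (−4.91), Psat1 (−4.01), Asns (−3.26) and Phgdh (−3.01) changed most. Under a set term 5 rather than 8 were called higher with IL-4, at a median of 1.16. For IL-6 against control the set term gave 0 higher and 2 lower, at a median of −1.26 against 0.07 without it. The lowest IL-4 library in Trib3 was IL-4 #1, with 11.4 FPKM against 40.2 and 72.4 in IL-4 #2 and #3, and it was also the lowest of its group in Cebpg, Ddit3 and Atf4.

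**Figure D5:**
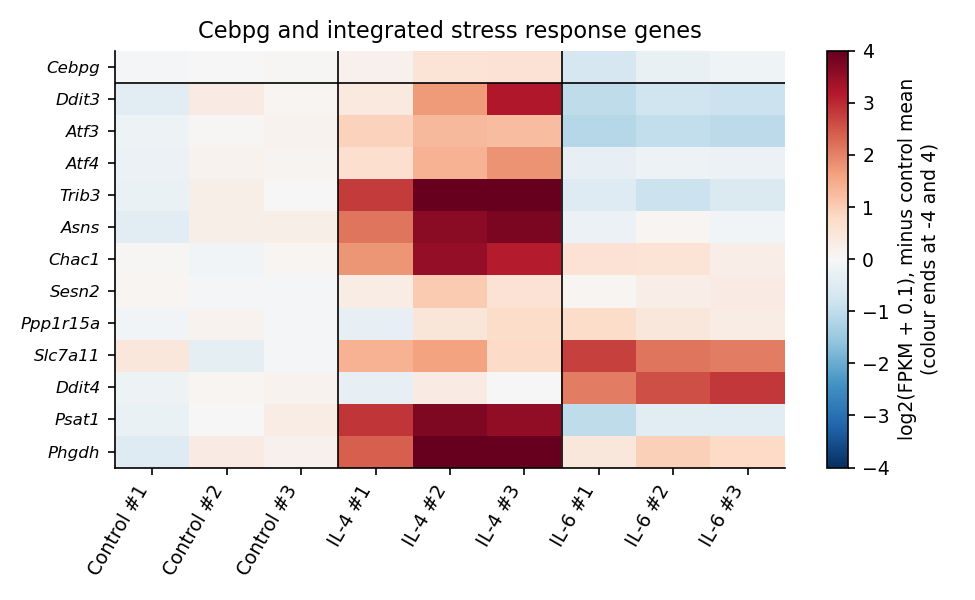
Log2(FPKM + 0.1) of Cebpg and 12 integrated stress response genes in each library, minus the mean of the control libraries; colours end at −4 and 4. IL-4 #1 is paler than IL-4 #2 and #3 in Trib3 (11.4 against 40.2 and 72.4 FPKM) and in most other genes that are high with IL-4.

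Across the 9 libraries the members did not move as a block. Cebpa and Cebpg, the neighbours on chromosome 7, had the closest profiles (Pearson r = 0.847 on log2(FPKM + 0.1)), followed by Cebpd and Cebpe (0.672) and Cebpb and Cebpd (0.605). Cebpe ran opposite to Cebpg (−0.736). Cebpb and Cebpg showed no relation (−0.0032). These values describe 9 libraries that share conditions, sets and perhaps mice, and they carry no test.

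Over the 6558 other genes with a mean of at least 5 FPKM, the 3 most like each member were named by Pearson r over the same 9 libraries. For Cebpa they were Idh3g (0.979) and Hadh (0.977), both mitochondrial enzyme genes, and the replication licensing gene Cdt1 (0.976). For Cebpb they were Tspo (0.968), Nupr1 (0.957) and Hilpda (0.953), which encode a mitochondrial outer membrane protein, a stress-responsive chromatin protein and a lipid droplet protein. For Cebpd they included Rnf130 (0.920) and Eed (0.910). For Cebpe they were Prtn3 (0.973), the heme oxygenase gene Hmox1 (0.972) and Cnn2 (0.972), and r was also high with Elane (0.942) and Mpo (0.939). For Cebpg they were the lipid transfer gene Pltp (0.973), the lipid droplet coat gene Plin2 (0.970) and the serine-glycine gene Shmt2 (0.960), and r was 0.900 with Ddit3 and 0.899 with Atf4. Among the regulators named, Cebpa had r of −0.928 with Socs3 and −0.882 with Trib1, and Cebpb had 0.783 with Spi1 and 0.595 with Socs3. Trends on exon length and GC content were left in the levels behind these r. For Cebpb the trend was 0.97 on the log2 scale in IL-4 #3, and its part in these r was not tested.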

How the data were processed

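RNA-seq of BM-derived Mϕs was used in 9 libraries (3 control, 3 IL-4, 3 IL-6). The deposited FPKM were made by the authors, per the processing notes and methods with STAR 2.4.2a on GRCm38 and Cufflinks 2.2.1, GENCODE M5 being named as annotation. Here identifiers were named from GENCODE M21, in which 50604 of 53379 were found with their version (94.8%). By M21 exon lengths, 100% of 92717 low values (up to 50 fragments) were whole fragments within 0.05, so fragments were recovered from the FPKM. Which program and annotation gave the table is therefore uncertain.

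FPKM were tested as log2(FPKM + 0.1), a scale that understates the change of low genes, with limma 3.58.1 in R 4.3.3 (trend and robust options, Benjamini-Hochberg adjustment). The 3 groups shared one model over genes with a mean of at least 0.5 FPKM, and 22332 genes were at 0 throughout. The members and the gene lists were chosen with earlier results of these data known. Named genes are all members and, per list and comparison, up to 4 called genes with the largest change. Stat3, Socs3, Ddit3, Atf4, Trib1, Spi1 and Il6ra are named whatever their values, and the 3 genes most like each member come from a ranking by r, of which 1 is not reported here. Other genes given by library and the ratio of Cebpb to Cebpa were chosen after their values were seen. The fit was tested on simulated data. Python 3.11.15 with pandas 2.3.3, numpy 2.4.6 and matplotlib 3.10.9 made the summaries.

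Columns of the deposited table end in m1 to m3 and the design names 3 mice. That equal numbers mark 1 mouse is an assumption, which no label states. Deviations from the group means of same-numbered libraries correlated at 0.521, −0.415 and 0.0777 (control and IL-4, numbers 1 to 3), 0.408, 0.201 and 0.166 (control and IL-6) and 0.281, −0.0612 and 0.153 (IL-4 and IL-6). The study's methods name no block, so the model has none.

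The alternatives tried were other pseudocounts (1 and 0.01), another filter (none, or a mean of at least 5 FPKM), median-ratio rescaling, quantile normalization, only the groups compared, the library number as a block, the adjusted p alone, voom on the recovered fragments and leaving out each library. The planned division into sets, at 1 per 1000000 of intestinal genes, put all 9 libraries together and was not run. A division without Lyz1, which Mϕs express, was chosen after seeing the data. So was the removal, in each library, of trends on exon length and GC content (natural splines, 5 degrees of freedom).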

Additional observations from a re-analysis of the deposited data

How the results depend on the processing

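Over the alternatives, values of the members kept direction and side of the threshold 295 times, became a call 9 times, lost one 10 times and turned sign once. Members that differed by less than their SE were taken as having no direction. Genes called with IL-4 against control numbered 1784, and 847 with a mean of at least 5 FPKM (fewer genes were tested), 1111 with a term for the set and 3186 by adjusted p alone. For IL-6 against control they were 690, and 306, 187 and 1077 under the same 3 settings, and 387 to 1001 with a library left out (445 without Control #2, 387 without Control #3, 424 and 408 without IL-6 #2 and #3). For IL-6 against IL-4 they were 2613, 1219 at the higher filter and 4375 by adjusted p alone. With IL-4, 644 were higher and 1140 lower, against 834 and 874 after median-ratio rescaling and 818 and 845 after quantile normalization. For IL-6 against IL-4 these pairs were 1738 and 875, 1398 and 1165, and 1297 and 1254.

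Without the 2-fold limit Cebpe with IL-4 (−0.91), Cebpa with IL-6 (−0.81) and, between the cytokines, Cebpa (−0.86) and Cebpg (−0.83) became calls. Median-ratio rescaling made the last comparisons calls too (−1.06 and −1.03). Cebpb with IL-6 lost its call with no filter (1.42), after rescaling (1.41), with a term for the set (0.42) and when any of 7 libraries was left out (1.28 to 1.60). Left-out libraries put Cebpb with IL-4 at 0.64 to 1.33, a call without IL-4 #1, and Cebpe with IL-4 at −1.19 to −0.72, a call without Control #1 or IL-4 #1. Cebpd with IL-6 turned to −0.21 with a term for the set, and the log2 ratio of Cebpb to Cebpa moved to 0.27 (IL-4) and 1.22 (IL-6). The cause was not tested. With the library number as a block the genes called were 1788, 656 and 2734, and adjusted p crossed 0.05 for Cebpb (0.0256), Cebpe (0.0521) and Cebpg (0.049) with IL-4 and for Cebpd between the cytokines (0.0342). No other member changed under this pairing. Each member held at least 204 fragments in every library.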
